A study of Mus musculus with 8 samples.

Results

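Mouse B cells sorted 4 days after a T-independent (TI) antigen were compared with resting B cells from unimmunised mice, on 2 arrays a group out of the 8 arrays and 4 groups of the series. Each array read 12422 probe sets beside its control probe sets, and 7253 of them, representing 5433 named genes, had intensities high enough to be tested. All mice were QMxB6 F1 hybrids. QM mice carry a rearranged immunoglobulin heavy chain gene in the germline, which pairs with lambda light chains to bind the hapten NP. The TI cells came from mice given 30 µg of NP-Ficoll, hapten on a carbohydrate polymer, into the peritoneum, and were sorted as GL7+ B220+. The resting cells were sorted as GL7- B220+. The labels call the TI cells germinal centre B cells. B220 is a B lineage surface marker and GL7 marks germinal centre and activated B cells. The other 2 groups were T-dependent (TD) and also GL7+ B220+. TD day 4 mice were primed with 50 µg of alum-precipitated chicken gamma-globulin and heat-killed B. pertussis, and 5 weeks after that received 50 µg of NP-CGG, the hapten on the same protein, in soluble form. TD day 10 mice received 50 µg of alum-precipitated NP-CGG with heat-killed B. pertussis and no priming. Each array held cells pooled from 4 to 10 mice, enriched on magnetic columns and then sorted by flow cytometry, so a replicate is a separate pool of mice and differences between single mice are not seen.

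TI antigens such as haptenated Ficoll cross-link the B cell receptor and drive division without help from T cells. Most responding cells become short-lived antibody-secreting plasma cells, and TI germinal centres form early and collapse. Secretion requires a large endoplasmic reticulum (ER), the compartment in which immunoglobulin chains are folded, glycosylated and assembled, while resting B cells recirculate through lymphoid organs, guided by chemokine and sphingosine-1-phosphate receptors.

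The values are the deposited array intensities, which are comparable between arrays for 1 probe set but not between genes. Of them 30.1% are 0 or below and have no log, so intensities at or under 81, the median of all values, were set to that floor before log2 was taken. A change was called where the Benjamini-Hochberg adjusted p of limma's moderated test was under 0.05. A gene with several probe sets is given by its brightest unless stated, and the dimmer ones of Pclaf, Notch2, Igll1 and Igkv6-14 were not called. Of 835 such genes, 141 had a called probe set and 28 had all of theirs called in 1 direction. A fold written as "at least" has at least 1 array of the dimmer group at or under the floor. Unless stated otherwise, each gene named below as having risen or fallen kept its call when each of the 4 arrays compared was left out in turn. Array medians lay between 77 and 89, and 49.1% to 51.2% of probe sets were above the floor on each array. The SD of the log2 difference between replicate arrays was 0.69 in resting cells and 0.50 to 0.55 in the 3 sorted GL7+ groups. The ratio of the 3′ to the 5′ Gapdh control probe sets rises as RNA degrades. It was 0.867 and 1.59 in the resting arrays and 1.24 and 1.68 in the TI arrays. The TD arrays had 0.981 and 0.954 at day 4 and 0.836 and 0.8965 at day 10. The 3′ 18S ribosomal RNA control was 2539 and 2828 in resting and 4927 and 5418 in TI. It was 2658 and 1722 in TD day 4 and 3007 and 2356 in TD day 10. The part of these differences in the results was not tested.

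TI cells differed from resting cells in 682 probe sets, 9.4% of those tested. Of these, 393 (5.42%) rose, representing 321 genes, and 289 (3.98%) fell, representing 232 genes. Among the pathway lists described below, which leave out the short cell type marker lists, DNA replication and mitosis had the largest shares that rose. Resting and recirculating B cell genes had the largest share that fell. The lists were chosen with earlier results of these arrays known, so these shares are not independent evidence. The median called rise was 2.69-fold and the median called fall 2.79-fold, and 544 called probe sets moved at least 2-fold. Over all probe sets the median log2 difference was -0.025, and 90% lay between -1.11 and 1.19. Both resting arrays were at the floor in 85 of the rises, and both TI arrays in 80 of the falls. The calls depended on the resting arrays as well as the TI arrays, and some were lost without any 1 of the 4 arrays compared. In all, 217 calls, 133 higher and 84 lower, were kept without each of the 4 arrays.

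**Figure D1:**
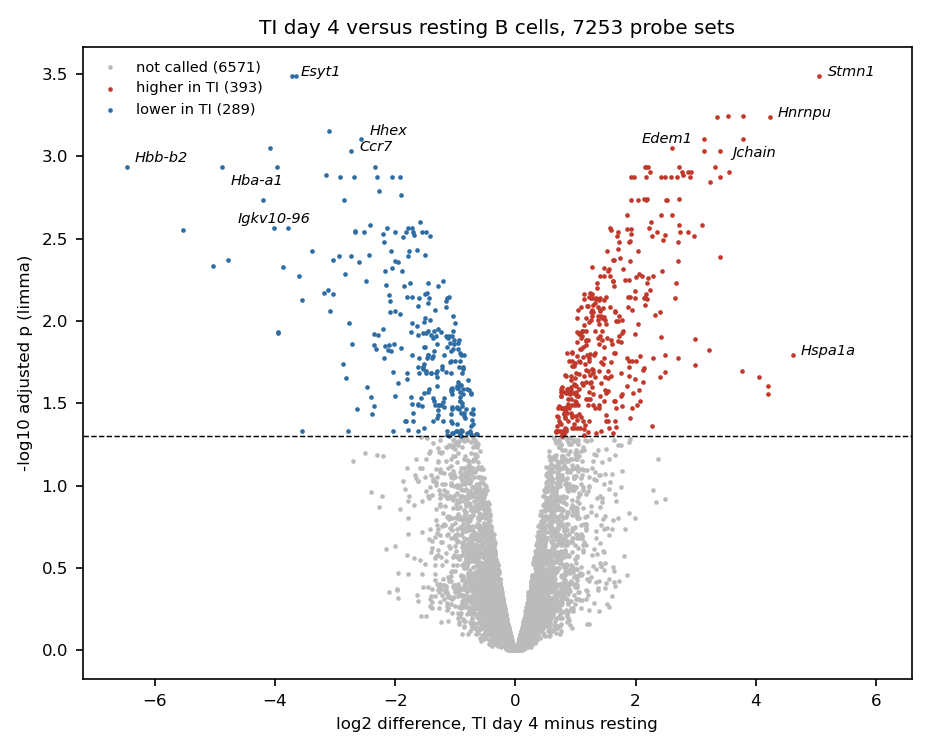
Each point is 1 of 7253 probe sets, with the log2 difference between TI day 4 and resting B cells on the x axis and -log10 of limma's adjusted p on the y axis. The dashed line is the threshold of 0.05, above which lie 393 higher and 289 lower probe sets, among them Stmn1 and Jchain on the right and Hbb-b2 and Esyt1 on the left.

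The identity of the sorted cells was checked with marker genes, of which those of plasma cells are given with the secretion genes below. Of 13 B cell markers tested, none rose and 2 fell, against 5.42% higher and 3.98% lower among all probe sets. Their median log2 difference was -0.513. In 9 of the 13 both TI arrays were below both resting arrays, against 23.0% of all probe sets. The receptor chain Cd79a had intensities of 9702 and 7003 in resting cells and 4554 and 5183 in TI cells, a difference that was not called (log2 difference -0.76 ± 0.22 SE, adjusted p = 0.0893, limma). Cd22, an inhibitory coreceptor, read 1353 and 2036 in resting and 830 and 870 in TI cells (1.95-fold lower, adjusted p = 0.0467), with adjusted p of 0.171 and 0.151 without TI arrays 1 and 2. Of 6 germinal centre markers tested, 3 rose and none fell. Bcl6, the transcriptional repressor required for germinal centres, was 452 and 438 in resting cells against 846 and 1034 in TI cells. The TI arrays lay above both resting arrays and the rise was 2.10-fold (adjusted p = 0.0149), or adjusted p = 0.0667 without TI array 2. The proliferation antigen Mki67 was under the floor on both resting arrays and read 348 and 163 in TI cells, at least 2.94-fold higher (adjusted p = 0.0445), with adjusted p between 0.0202 and 0.145 when 1 of the 4 arrays was left out. Another Mki67 probe set was not called (adjusted p = 0.0709).

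In a wider list of 18 germinal centre genes, 6 rose and 2 fell, and 2 to 4 rises remained called when 1 array was left out. Rgcc, a regulator of the cell cycle, rose 3.65-fold, from 110 and 96 to 331 and 426. Lmo2, a transcriptional adaptor high in germinal centre cells, went the other way, from 845 and 933 to 459 and 383 (2.12-fold lower, adjusted p = 0.0135, or 0.0638 without TI array 2). The difference in Bcl6 between TI cells and TD day 4 cells, which read 1409 and 1236, was not called. Its log2 difference was -0.50 ± 0.17 SE (adjusted p = 0.264, limma). Over the 6 germinal centre markers, the median log2 difference from resting was 0.725 in TI, 1.27 in TD day 4 and 1.35 in TD day 10. Against each TD group, 1 of the 6 was called lower in TI and none higher, beside 0.717% and 1.2% of all probe sets lower. In each comparison 4 of the 6 had an unadjusted limma p under 0.05.

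Red cell and neutrophil transcripts were brighter on the resting arrays. Summed over 10 red cell markers tested, intensity was 27156 and 24393 on the resting arrays and 3635 and 4204 on the TI arrays, and 4 of the markers fell while 2 rose. Haemoglobin Hbb-b2 read 8744 and 7985 in resting cells and 110 and 59 in TI cells, which was the largest named fall of the comparison, at least 88.5-fold. Slc4a1, the red cell anion exchanger, moved the other way, from 724 and 707 to 1700 and 2317 (2.77-fold higher, adjusted p = 0.00944). Over 12 neutrophil markers the sums were 7683 and 7945 in resting and 2917 and 3868 in TI cells, and S100a8, a neutrophil calcium-binding protein, was the 1 called, as lower (5.08-fold, adjusted p = 0.0327, and 0.0395 to 0.123 with 1 array left out). Of 15 macrophage markers, Apoe rose and the complement genes C1qa and C1qc fell, with sums of 8864 and 8202 in resting and 11136 and 9098 in TI. Apoe, a lipid carrier, had adjusted p = 0.0169 with all arrays and 0.0391 to 0.108 with 1 left out. Of 8 NK cell markers, Ccl5 and Gzma fell, Gzma at adjusted p = 0.0498 and 0.0572 to 0.193 with 1 array left out. By limma no marker of T cells (9 tested), dendritic cells (7), stromal and follicular dendritic cells (10) or platelets (3) was called, and 2, 0, 3 and 0 of them had an unadjusted p under 0.05. In pooled bulk samples fewer cells of a type and less RNA per cell cannot be told apart. Leaving the marker probe sets of other cells out of the test gave 667 calls in 7211 probe sets.

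Genes of DNA replication rose most often. Of 34 members tested, 22 were higher in TI cells and none lower, against 5.42% higher among all probe sets, and their median log2 difference was 1.40. Pclaf, which binds the replication clamp PCNA, read 159 and 104 in resting cells and 1367 and 1091 in TI cells. Both TI arrays were far above both resting arrays, and the rise was 9.50-fold (log2 difference 3.25 ± 0.25 SE, adjusted p = 0.00143). Pcna, the clamp itself, went from 664 and 800 to 2611 and 2685, a 3.63-fold rise with no overlap between the groups. Rrm1, the large subunit of ribonucleotide reductase, was under the floor on both resting arrays and read 415 and 514 in TI cells, at least 5.70-fold higher. Rpa3, a subunit of the protein that coats single-stranded DNA, rose 4.44-fold. The count was 17 to 19 when 1 of the 4 arrays was left out.

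Promoters of replication genes often carry sites for the E2F factors, which switch on S phase genes. The letters TTTCCCGC or TTTGGCGC were searched on both strands of RefSeq promoter windows (GRCm38.p6, 250 bases before to 50 after the start site). Of the 20 risen replication genes with a window, 5 held a match, as did 5 of the 12 not called higher, against 3.83% of the 4358 tested genes with a window and 1.56% of all 32851 windows. Among genes of G2 and mitosis, described below, none of the 16 risen members with a window and none of the 13 not called higher held a match. These shares were not tested against each other. The stretch from 180 to 81 bases before the start site is shown for 3 risen members with a match there, with the matched letters in capitals. They were picked after their values were seen.
Cdc6 (chr11:98907971-98908070, plus strand): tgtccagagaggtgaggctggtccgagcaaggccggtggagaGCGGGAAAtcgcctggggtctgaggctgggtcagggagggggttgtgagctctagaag
Mcm5 (chr8:75109329-75109428, plus strand): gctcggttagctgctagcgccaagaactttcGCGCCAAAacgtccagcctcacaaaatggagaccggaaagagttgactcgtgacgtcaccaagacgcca
Mcm7 (chr5:138171964-138172063, minus strand): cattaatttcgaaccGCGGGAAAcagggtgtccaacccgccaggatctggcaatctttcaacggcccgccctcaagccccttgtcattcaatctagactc
Cdc6 and Mcm5, which load the replicative helicase and form part of it, rose at least 3.07-fold and 3.13-fold, although another Mcm5 probe set was not called (adjusted p = 0.172). Mcm7, another helicase subunit, rose 2.31-fold, with adjusted p = 0.0200 and 0.0371 to 0.0734 with 1 array left out.

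Genes of G2 and mitosis rose in 19 of 35 members tested, none fell, and the median log2 difference was 1.44. Cks1b, a small subunit that docks cyclin-dependent kinases onto substrates, read 8 and 48 in resting cells and 939 and 953 in TI cells, at least 11.7-fold higher (adjusted p = 0.000566). Its relative Cks2 rose at least 10.3-fold. Both were under the floor on both resting arrays and well above it on both TI arrays. Cdc20, the activator of the anaphase-promoting complex, went from 245 and 190 to 1411 and 1558 (6.87-fold), and the mitotic kinesin Kif20a rose at least 8.86-fold. Stmn1, which destabilises microtubules, read -35 and -17 in resting cells and 2585 and 2811 in TI cells. This was the largest rise of any named gene, at least 33.3-fold (log2 difference 5.06 ± 0.17 SE, adjusted p = 0.000324). Without 1 of the 4 arrays the mitotic count ranged from 14 to 20.

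Chromatin proteins rose with the cycle genes, in 11 of 27 members with none lower and a median of 0.66. The high mobility group protein Hmgb2 was 179 and 185 in resting and 3017 and 2113 in TI cells, 13.9-fold higher. Dnmt1, the maintenance DNA methyltransferase, was under the floor in resting cells and read 754 and 867 in TI cells, at least 9.98-fold higher. Uhrf1, which recruits it to replicated DNA, rose 4.80-fold, and Ezh2, the histone methyltransferase of Polycomb complex 2, at least 3.78-fold. Leaving out either TI array reduced the count to 6. Of 16 G1 regulators, 4 rose and Cdkn1b, the cyclin-dependent kinase inhibitor p27, fell at least 2.11-fold, although its adjusted p was 0.0804 and 0.0840 without TI arrays 1 and 2. Of the G1 rises, 1 or 2 were called with any 1 of the 4 arrays left out. Outside these lists, Anxa2, a membrane-binding annexin, was under the floor in resting cells and read 1087 and 1144 in TI cells, at least 13.8-fold higher.

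The TD groups, which share the resting arrays, moved in the same lists. DNA replication rose in 22 of 34 members in TD day 4 and in 24 in TD day 10, against 5.83% and 6.45% of all probe sets. The 2 kinds of response were therefore compared directly, with the resting arrays entering only the filter and the estimate of spread shared by the 4 groups. TI differed from TD day 4 in 105 probe sets (1.45%), with 0.731% higher and 0.717% lower, and from TD day 10 in 174 (2.40%), with 1.2% in each direction. By limma no replication gene and no mitotic gene was called between TI and TD day 4, where 6 and 4 members had an unadjusted p under 0.05, and 1 replication gene was lower in TI than in TD day 10. Both counts over all probe sets rested on every array: they fell to between 0 and 28 for TD day 4 and to between 4 and 45 for TD day 10 when 1 array of either group was left out. In fits of the compared arrays alone limma called 0 probe sets in each comparison, with 1313 and 1442 at an unadjusted p under 0.05 for TD day 4 and TD day 10. The 0 among the omissions came without TI array 2, where 816 probe sets still had an unadjusted limma p under 0.05.

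**Figure D2:**
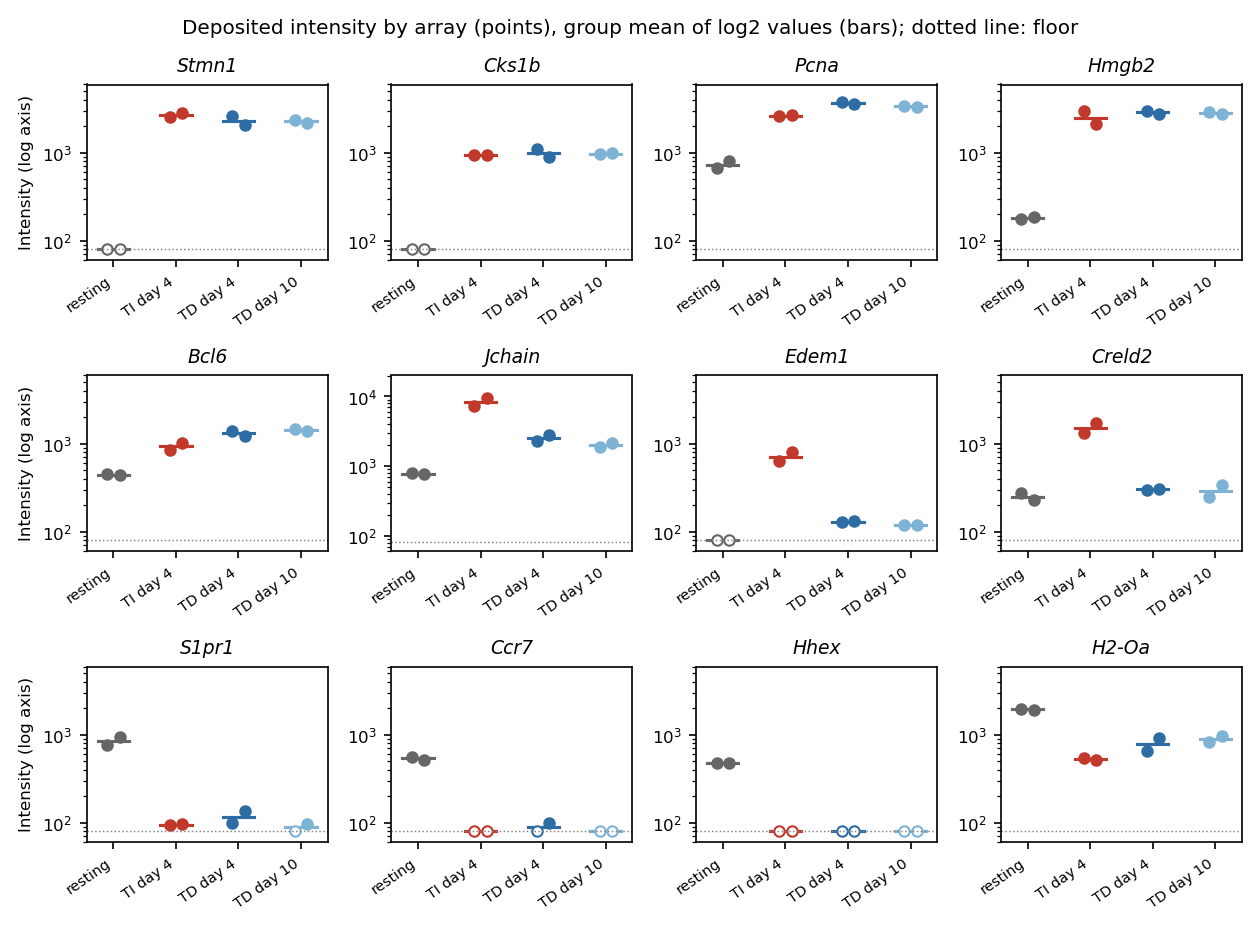
Deposited intensity on a log axis for 12 genes, with 1 point per array, bars at the mean of log2 values of the 2 arrays, and open points for arrays at or under the floor (dotted line). Cell cycle genes in the top panels were alike in the 3 GL7+ groups, Jchain, Edem1 and Creld2 were highest in TI cells, and S1pr1, Ccr7, Hhex and H2-Oa were highest in resting cells.

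Genes of antibody secretion formed another set of rises. Of 11 plasma cell regulators tested, 4 rose and none fell, with a median log2 difference of 0.66. In the short list of plasma cell markers, 3 of 5 rose and none fell, against 5.42% higher among all probe sets. Their summed intensity was 2141 and 2039 in resting cells and 10194 and 13816 in TI cells. The plasma cell markers Prdm1 and Sdc1 were on the array but too dim to be tested. Whether the TI sort held plasma cells was not tested. Jchain, which links IgM and IgA into polymers, read 803 and 764 in resting cells and 7347 and 9356 in TI cells. The rise was 10.6-fold (log2 difference 3.40 ± 0.20 SE, adjusted p = 0.000927), and TI cells were also above TD day 4 (2266 and 2770, adjusted p of the difference 0.0208) and TD day 10 (1860 and 2121, adjusted p = 0.00982). Ell2, an elongation factor that favours the secreted form of heavy chain mRNA, rose 5.12-fold. Xbp1, the transcription factor that expands the ER in plasma cells, went from 756 and 548 to 2072 and 2951 (3.84-fold, adjusted p = 0.0176), but with adjusted p between 0.0524 and 0.108 when any 1 of the 4 arrays was left out. Tnfrsf17, the receptor BCMA, rose 2.69-fold, with adjusted p of 0.0836 without TI array 2 and 0.0615 without resting array 2. Without TI array 2 the list had 2 calls in place of 4.

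ER chaperones and disulfide isomerases rose in 8 of 26 members tested and fell in 1, with a median of 0.60. Over all probe sets 5.42% were higher and 3.98% lower. Creld2, an ER stress-inducible protein, was 273 and 227 in resting cells and 1338 and 1708 in TI cells, 6.07-fold higher (adjusted p = 0.00226). Erp44, which retains unassembled immunoglobulin, rose 5.37-fold, from 132 and 164 to 710 and 878. Hsp90b1, the ER form of HSP90, rose 3.44-fold, from 1253 and 1105 to 3734 and 4400, with adjusted p = 0.0114 and 0.0478 to 0.0767 with 1 array left out. Txndc5, an ER protein with thioredoxin domains, read 77 and 447 in resting and 3083 and 3950 in TI cells, and its adjusted p of 0.0247 became 0.117 and 0.140 without TI arrays 1 and 2. The 1 fall was Ero1a, an ER oxidase (2.13-fold, adjusted p = 0.0179, and 0.0732 without TI array 2 and 0.0529 without resting array 2). The list had 5 rises without TI array 1 or resting array 2 and 3 without TI array 2, and 4 of its members were higher in TI than in TD day 4 with none lower. Of all probe sets 0.731% were higher in TI than in TD day 4. Erp44 stood apart from Creld2 in that it was also called higher in TD day 4 than in resting cells (749 and 705).

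Degradation from the ER and the unfolded protein response rose in 7 of 19 members and fell in none (median 0.52). Over all probe sets 5.42% were higher. Edem1, a lectin that routes misfolded glycoproteins out of the ER, read 29 and 46 in resting cells, 639 and 803 in TI cells, 128 and 133 in TD day 4 and 118 and 118 in TD day 10. TI was at least 8.84-fold above resting (adjusted p = 0.000781) and above both TD groups (adjusted p = 0.00670 and 0.00403). Sel1l, the adaptor of the ER ubiquitin ligase, rose at least 3.91-fold on 1 probe set, and its other probe set was not called (log2 difference 0.45). Man1b1, a mannosidase of the same route, rose at least 4.50-fold. Of 29 members of ER translocation and N-glycosylation, 7 rose and none fell (median 0.40). Sec61b, a subunit of the translocation channel, rose 2.20-fold, from 930 and 889 to 1909 and 2097. The 2 counts were 4 and 2 without TI array 1, and 3 and 1 without TI array 2. Of 35 genes of transport from the ER to the Golgi, 2 rose, the coat proteins Sec13 and Sar1b, close to the share over all probe sets. Sec13 had adjusted p = 0.0273 (0.0217 to 0.118 with 1 array left out) and Sar1b 0.0364 (0.0572 to 0.141).

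The ER stress response element is a promoter sequence read by ATF6 and related factors. Its letters, CCAAT and CCACG with 9 bases of any kind between them, were searched on both strands of the same windows. Of the 8 risen chaperones, 4 held a match, against 3 of 16 members not called higher (Canx, Ero1b and Pdia6), 0.229% of the 4358 tested genes and 0.119% of all windows. No member of the degradation and translocation lists with a window held one. The 230 bases before the start site are shown for the 4 risen genes, with the matches in capitals, because these genes share both the rise and the letters. Hsp90b1 held 2 matches.
Creld2 (chr15:88819416-88819645, plus strand): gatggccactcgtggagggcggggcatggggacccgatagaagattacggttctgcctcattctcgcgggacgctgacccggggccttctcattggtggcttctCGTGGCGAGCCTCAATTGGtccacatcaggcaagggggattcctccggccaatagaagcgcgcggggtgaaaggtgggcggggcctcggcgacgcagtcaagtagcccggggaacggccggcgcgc
Dnajc3 (chr14:118937702-118937931, plus strand): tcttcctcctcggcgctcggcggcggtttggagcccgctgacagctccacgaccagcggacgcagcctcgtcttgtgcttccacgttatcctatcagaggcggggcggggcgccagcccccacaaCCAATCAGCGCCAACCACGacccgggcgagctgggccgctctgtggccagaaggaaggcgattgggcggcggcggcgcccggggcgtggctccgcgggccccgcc
Hsp90b1 (chr10:86705445-86705674, minus strand): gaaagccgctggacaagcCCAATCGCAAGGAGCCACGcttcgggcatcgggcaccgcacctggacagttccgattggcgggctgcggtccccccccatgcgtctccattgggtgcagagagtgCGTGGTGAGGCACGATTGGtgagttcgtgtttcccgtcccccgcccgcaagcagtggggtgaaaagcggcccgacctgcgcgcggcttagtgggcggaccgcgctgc
Hspa5 (chr2:34771860-34772089, plus strand): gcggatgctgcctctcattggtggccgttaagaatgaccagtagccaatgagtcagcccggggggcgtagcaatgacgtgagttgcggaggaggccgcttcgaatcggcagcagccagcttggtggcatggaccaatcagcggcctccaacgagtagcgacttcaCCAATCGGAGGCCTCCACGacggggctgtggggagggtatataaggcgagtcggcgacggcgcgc
Dnajc3, an ER co-chaperone and kinase inhibitor, rose on each of its 3 probe sets, from 132 and 122 to 363 and 504 on the brightest (3.37-fold). Its adjusted p there was 0.0135 with all arrays and between 0.0430 and 0.0802 with 1 left out. Hspa5, the main ER HSP70 chaperone BiP, read 1114 and 1129 in resting and 1983 and 2037 in TI cells. It rose 1.79-fold (adjusted p = 0.0453), and its adjusted p was 0.0926 to 0.157 with 1 array left out. The genes of this paragraph other than Creld2 and Hsp90b1 were picked for the match after their values were seen.

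**Figure D3:**
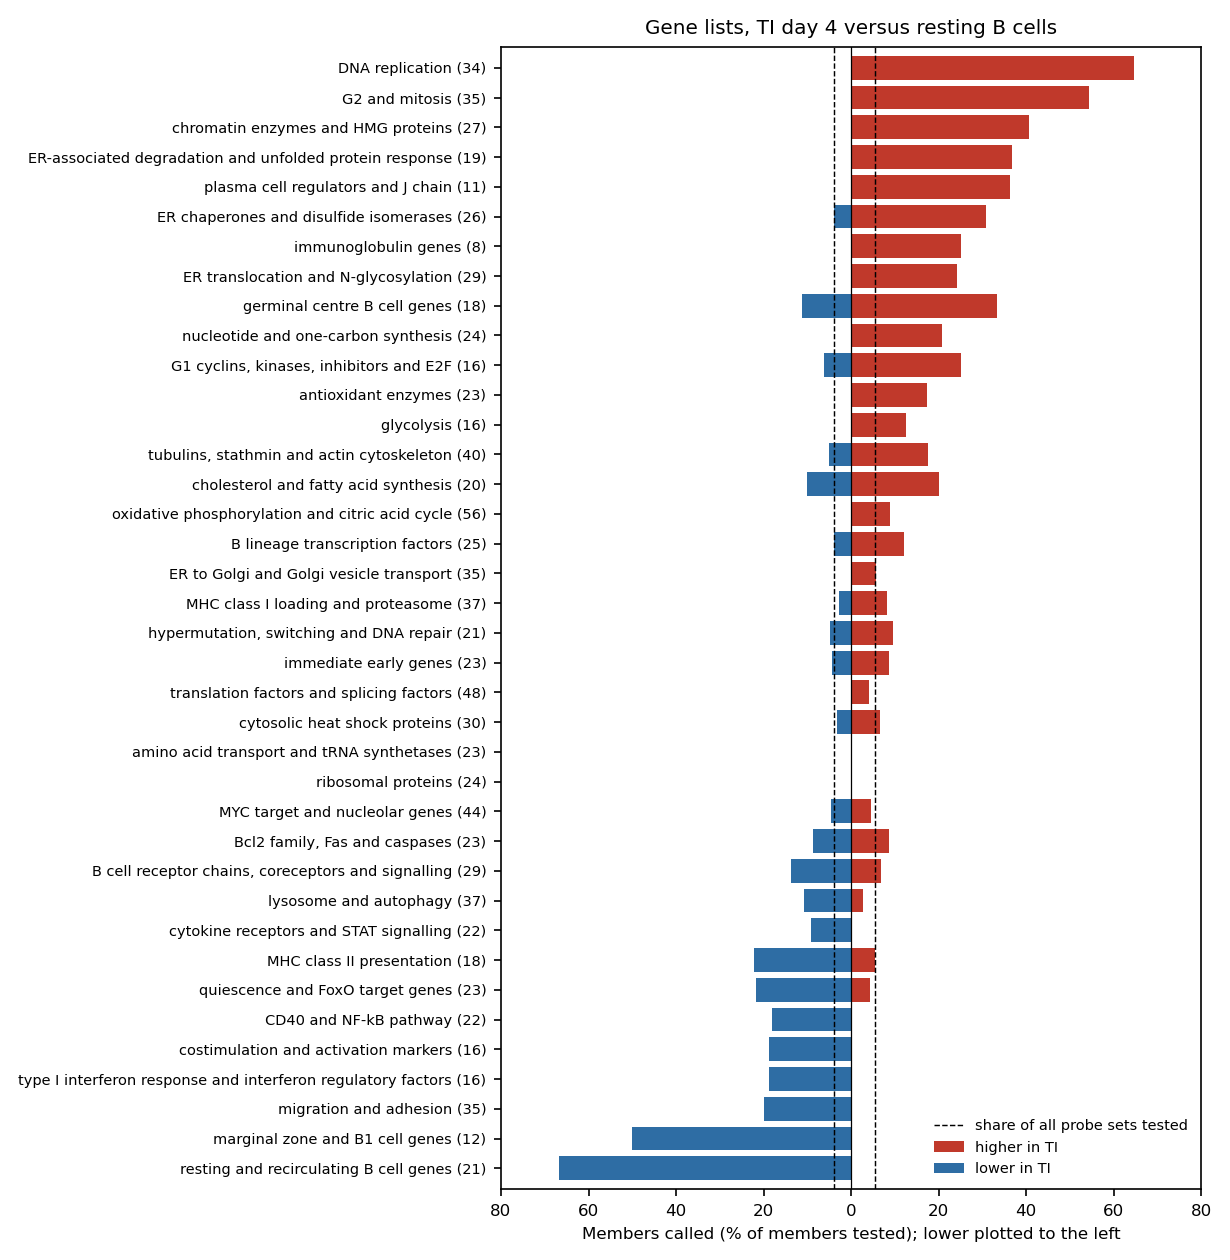
Share of tested members called higher (red, to the right) or lower (blue, to the left) in TI cells for each gene list, with the number tested in parentheses. Dashed lines mark the shares over all probe sets, 5.42% higher and 3.98% lower. DNA replication with 22 of 34 higher and resting B cell genes with 14 of 21 lower lie at the ends. The lists were chosen with earlier results of these arrays known.

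A probe set shared by lambda light chain genes rose, and 12 of 22 kappa variable probe sets fell. The QM heavy chain binds NP with lambda light chains. A probe set annotated to several lambda genes read 2919 and 2860 in resting cells and 20316 and 21989 in TI cells. Its TI values were 7.32-fold higher (log2 difference 2.87 ± 0.20 SE, adjusted p = 0.00125), while TD day 4 read 2832 and 3894 and TD day 10 read 1246 and 1349. The difference between TI and TD day 4 was 6.36-fold (adjusted p = 0.00670). The other lambda probe set, Iglc1, was not called, and its replicates were far apart (576 and -30 in resting, 357 and -28 in TI cells, adjusted p = 0.912). Of 22 kappa variable probe sets with 1 gene symbol, representing 14 genes, 12 fell and none rose (median log2 difference -1.51). Over all probe sets tested 3.98% fell. Igkv10-96 read 2463 and 1393 in resting and 113 and 90 in TI cells, 18.4-fold lower, and Igkv6-23 fell 2.84-fold from 21428 and 17269 to 6898 and 6664. Igkv9-120 did not follow: 1 probe set read 8195 and 2090 in resting and 22145 and 20776 in TI cells, which was not called with all arrays (log2 difference 2.37) and was called higher without resting array 1 (adjusted p = 0.0132). The brightest Igkv14-111 probe set likewise was not called with all arrays (3900 and 1447 against 6199 and 6383, log2 difference 1.40) and was called higher without resting array 1 (adjusted p = 0.0293), while another Igkv14-111 probe set was among the 12 falls. The kappa count was 7 without TI array 2. The other Igkv9-120 probe set read 330 and 171 in resting and 125 and 145 in TI cells and was not called (log2 difference -0.82). Of 8 probe sets annotated to several kappa genes, 6 fell and none rose, and fewer than 6 fell without TI array 1 or TI array 2. The brightest of these, at 21899 and 18523 in resting and 12366 and 13149 in TI cells, was not called (1.58-fold lower). The groupings were made, and Igkv6-23, Igkv9-120, Igkv14-111 and Iglc1 picked, after the values were seen. Of the 22 probe sets, 13 are of the type whose probes match several members of a sequence family, so they are not independent readings of 14 genes.

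The heavy chain variable gene Ighv14-2 fell on all 3 of its probe sets, from 4144 and 1886 to 91 and 49 on the brightest (at least 32.6-fold, adjusted p = 0.00463), and was also lower than resting in both TD groups (219 and 541, and 166 and 276). Of the other Ighv14-2 probe sets, 1 kept its call without each array and the other had adjusted p = 0.0117, or 0.0264 to 0.0824 with 1 array left out. The mu constant gene Ighm was not called on any of 11 probe sets, the brightest of which read 20080 and 16255 in resting and 26623 and 26193 in TI cells. The 7 probe sets of Ighg3, the gamma3 constant gene, disagreed. Of these, 3 rose, by 3.97-fold (649 and 588 to 1979 and 3036), 7.88-fold and 3.53-fold. A family-type probe set fell at least 6.19-fold, from 925 and 272 to 70 and 67, with adjusted p = 0.0340 and 0.157 without either TI array, and 3 were not called. Ighg3 was the 1 gene called in both directions among 835 genes with several probe sets tested. Igll1, a surrogate light chain gene with sequence like the lambda constant region, rose 2.32-fold, with adjusted p = 0.0131 and 0.0379 to 0.0696 with 1 array left out. Without the immunoglobulin probe sets the test gave 648 calls.

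**Figure D4:**
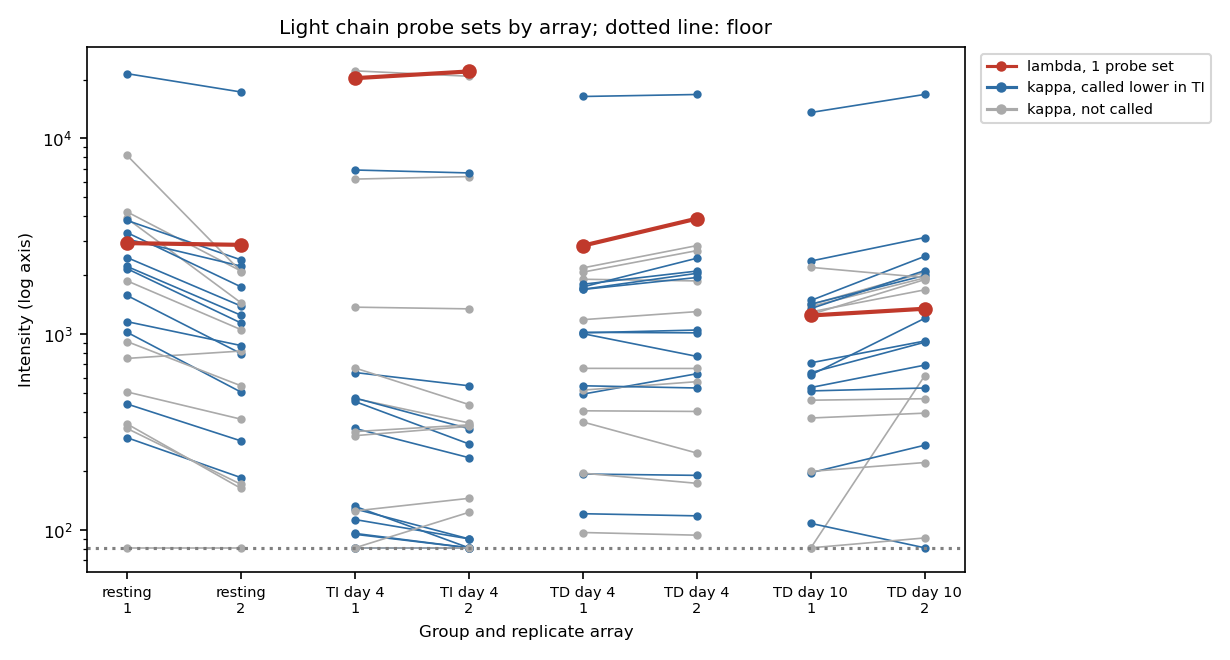
Intensity on a log axis of 22 kappa variable probe sets and the lambda probe set of several genes on each of the 8 arrays, with lines joining the 2 arrays of a group; values at or under the floor are drawn on the dotted line. The lambda probe set (red) read 20316 and 21989 on the TI arrays and between 1246 and 3894 on the others. The 12 kappa probe sets called lower (blue) lay lower on both TI arrays than on both resting arrays, and 1 kappa probe set that was not called (grey) read 22145 and 20776 in TI cells.

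Recirculation and resting state genes were lower in TI cells. Of 21 members tested, 14 fell and none rose, against 3.98% lower among all probe sets, with a median log2 difference of -1.48. The list was chosen with earlier results of these arrays known, so its direction is not independent evidence. S1pr1, the sphingosine-1-phosphate receptor used to leave lymphoid tissue, went from 765 and 937 to 93 and 97, 8.91-fold lower (adjusted p = 0.00130). Ccr7, the chemokine receptor for the T cell zone, read 561 and 518 in resting cells and was under the floor in TI cells, at least 6.66-fold lower. Esyt1, a protein tethering the ER to the plasma membrane, read 1052 and 1064 against -9 and 56 (at least 13.1-fold lower, adjusted p = 0.000324), and the actin-binding calponin Cnn3 fell at least 15.7-fold. Fcer2a, the low-affinity IgE receptor CD23, fell 4.52-fold, from 2201 and 2703 to 524 and 555, and was picked after its values were seen. The red cell and neutrophil transcripts described above moved with this list, and their part in it was not tested. The count was 8 without TI array 2, 9 without resting array 1, 10 without TI array 1 and 12 without resting array 2. Both TD groups, which share the resting arrays, had 12 of the 21 lower, against 3.58% of all probe sets in TD day 4 and 4.44% in TD day 10, and by limma no member was called between TI and TD day 4, where 2 had an unadjusted p under 0.05.

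Marginal zone and B1 cell genes fell in 6 of 12 members and rose in none (median -1.03), against 3.98% lower among all probe sets. Cd1d1, which presents lipids and is high on marginal zone cells, went from 255 and 342 to under the floor, at least 3.65-fold lower. Notch2, the receptor required for marginal zone cells, fell 4.34-fold, from 930 and 643 to 200 and 159, with adjusted p = 0.0150 and 0.0399 to 0.102 with 1 array left out. The list had 1 fall without TI array 2, 2 without TI array 1 and 3 without either resting array. Quiescence and FoxO target genes fell in 5 of 23 members, or in 2 without TI array 1, TI array 2 or resting array 1. Slfn2, needed to keep lymphocytes quiescent, fell 2.73-fold (2749 and 3063 to 1087 and 1038). Bcl6 was the 1 riser of that list. Hhex, a homeobox transcription factor of early B cells, was the 1 fall among 25 lineage transcription factors, of which 3 rose. The count of falls was near the share over all probe sets, where 3.98% fell and 5.42% rose. Fewer than 3 rises were called with any 1 of the 4 arrays left out. Hhex read 481 and 480 in resting cells and 21 on each TI array, at least 5.93-fold lower (adjusted p = 0.000781).

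Genes of antigen presentation and of receptor signalling were lower in part. Over all probe sets 5.42% were higher and 3.98% lower. Of 18 MHC class II genes tested, 4 fell and 1, the protease Lgmn, rose (1.69-fold, adjusted p = 0.0421, and 0.0308 to 0.147 with 1 array left out), with a median of -0.55. Lgmn was named after its value was seen. H2-Oa, which restrains peptide loading, fell 3.68-fold, from 1995 and 1899 to 541 and 518. H2-Aa, a class II chain itself, read 15575 and 14325 against 9937 and 10025, a difference that missed the threshold (adjusted p = 0.0617). In the CD40 and NF-kB list 4 of 22 fell and none rose. Nfkb2, the p100 precursor of the alternative pathway, went from 613 and 611 to 74 and 10, at least 7.55-fold lower (adjusted p = 0.00133). Stat6, the transducer of IL-4 signals, was 352 and 526 in resting cells and under the floor in TI cells (at least 5.31-fold lower). Irf9, part of the interferon-activated factor, fell at least 6.35-fold (636 and 488 against 69 and 95), and Rsad2, an interferon-induced antiviral gene, at least 2.31-fold, in a list where 3 of 16 fell. Of 29 B cell receptor genes, 4 fell and 2 rose, and Nfatc1, a calcium-regulated transcription factor, rose 2.61-fold, from 382 and 356 to 1097 and 842. Among 23 genes of the Bcl2 family and caspases 2 rose and 2 fell, too few to read as a change of the list. The pro-apoptotic Bid rose at least 3.77-fold. Without TI array 1 or 2 the falls numbered 1 and 1 in the MHC class II list, 1 and 2 in the CD40 list and 1 and 0 in the receptor list.

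The largest rises also held stress genes. Hspa1a, the inducible cytosolic HSP70, read 45 and 101 in resting and 2876 and 1709 in TI cells (at least 24.5-fold), and the immediate early factor Fos read 101 and 195 against 2150 and 1711 (13.7-fold). Their adjusted p-values were 0.0162 and 0.0200, and every omission of 1 of the 4 arrays ended both calls, at 0.0717 to 0.109 for Hspa1a and 0.0570 to 0.121 for Fos. Another Fos probe set was not called (adjusted p = 0.345). The TD day 4 arrays were far apart for both genes, at 170 and 912 for Hspa1a and 250 and 1036 for Fos. Few other members were called: of 30 cytosolic heat shock genes 2 rose and 1 fell, and of 23 immediate early genes 2 rose and 1 fell, both near the background.

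By limma no ribosomal protein gene was called among 24 (median log2 difference -0.35), 7 had an unadjusted p under 0.05, and 16 had both TI arrays below both resting arrays, against 23.0% of all probe sets. MYC target and nucleolar genes had 2 rises and 2 falls in 44 members with a median of -0.21. These counts were near the shares over all probe sets, 5.42% higher and 3.98% lower. Apex1, a base excision repair endonuclease, was among the falls, from 491 and 448 to 198 and 225 (2.22-fold), and was also lower than in TD day 4 (473 and 482, adjusted p = 0.0284) and TD day 10 (508 and 518, adjusted p = 0.0165). Translation and splicing factors rose in 2 of 48 members in TI cells, in 13 in TD day 4 and in 11 in TD day 10. The shares over all probe sets were 5.42%, 5.83% and 6.45%. When TI and TD day 4 were compared directly, 1 member was called, as lower in TI (median log2 difference of the list -0.22). By limma 11 of the 48 had an unadjusted p under 0.05 in that comparison, against 1044 of the 7253 probe sets.

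In 40 probe sets (0.551%) TI cells were higher than each of the 3 other groups, and in 23 (0.317%) lower than each. Hnrnpu, an RNA-binding nuclear protein, was the highest of them on 1 probe set, at 85 and 0 in resting, 1358 and 1792 in TI, 82 and 103 in TD day 4 and -9 and -47 in TD day 10. Its other probe set was not called (log2 difference -0.33). Rexo2, an oligoribonuclease, was under the floor in resting cells and read 775 and 1171 in TI cells (at least 11.8-fold higher), and Prdx4, the ER peroxiredoxin, rose at least 6.68-fold to 634 and 758. On the low side, Dguok, the mitochondrial deoxyguanosine kinase, read 411 and 412 in resting cells, 77 and 109 in TI and 411 to 474 in TD cells (at least 4.38-fold below resting, adjusted p = 0.00274), while its other probe set was not called (log2 difference -0.04). Ids, a lysosomal sulfatase, fell 8.22-fold, from 891 and 1387 to 105 and 174 on 1 probe set, and the other was not called (log2 difference -0.53). Pfn1, the actin monomer binder profilin, rose 2.51-fold, from 458 and 529 to 1139 and 1343, while both TD groups read 442 to 499. These genes depend on the TD comparisons, whose counts fell to 45 or fewer when 1 array was left out.

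**Figure D5:**
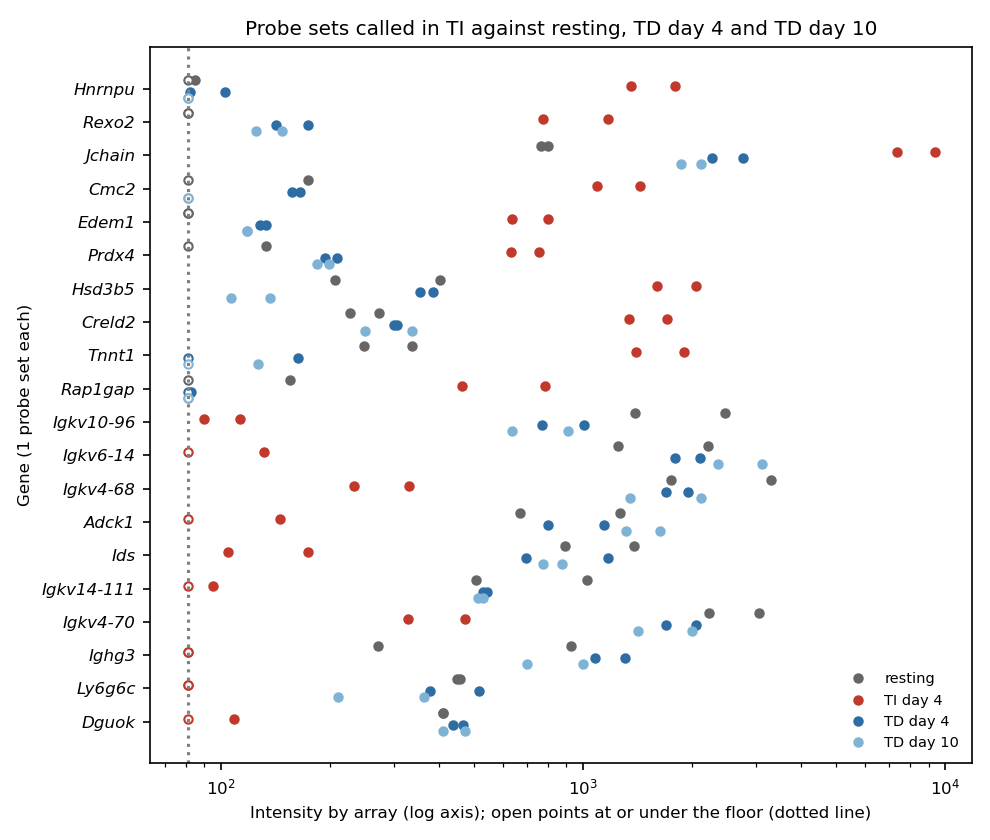
Intensity on a log axis for the 10 highest and 10 lowest probe sets that were called in TI cells against resting, TD day 4 and TD day 10 cells, with 1 point per array and open points at or under the floor (dotted line). The TI points (red) lie to the right of all others for the upper 10 genes and to the left for the lower 10, which include 5 kappa variable genes.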

How the data were processed

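Total RNA of sorted, pooled mouse B cells was labelled with biotin and hybridised to 8 Affymetrix mouse arrays, per the labels' protocols. The authors' deposited values are linear intensities, 1 per probe set and array, and 30.1% are 0 or below. Their software is not given in the sources used here. The mean of each array without the highest and lowest 2% of values was between 200.17 and 200.2, so the arrays came scaled to 1 level, and no further scaling was made. Gene names come from the platform annotation: 10855 probe sets had 1 gene, 396 several and 1237 none.

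Intensities were floored at 81 (the 50th percentile) and put on the log2 scale. Probe sets above the floor on at least 2 arrays were kept. One linear model of the 4 groups was fitted with limma 3.58.1 under R 4.3.3, with 4 residual degrees of freedom, two-sided tests and Benjamini-Hochberg adjustment over the 7253 probe sets. The number of arrays limits the precision. A gene in several probe sets was represented in list counts by its brightest. The code was tested on simulated data. Genes were named by a rule: the 15 largest called rises and the 15 largest falls without overlap, from every list the 4 genes lowest in p, Bcl6, Mki67, 1 further gene not reported here, the immunoglobulin constant and J chain genes, and the 10 largest each way against both TD groups. Others are said to be picked later. Members, lists and tests were chosen with earlier results of these data known. Same-numbered arrays did not deviate together (correlations -0.217 to 0.121), so no pairing was assumed.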

Additional observations from a re-analysis of the deposited data

Results flagged for a closer look

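Of the 40 higher and 23 lower probe sets in which TI cells differed from resting, TD day 4 and TD day 10 cells alike, 10 each way are given here by the log2 difference between TI and TD day 4, a direct contrast in the model of all 4 groups. The higher ones were Hnrnpu (4.09), Tnnt1 (3.83), Cmc2 (2.96), Rap1gap (2.88), Rexo2 (2.60), Edem1 (2.46), Creld2 (2.32), Hsd3b5 (2.29), Prdx4 (1.78) and Jchain (1.73). Tnnt1 is a slow muscle troponin and Hsd3b5 a steroid dehydrogenase of the liver, and they read 1401 and 1904 and 2052 and 1606 in TI cells. The other probe sets of Tnnt1 and Cmc2 were not called against resting cells (log2 differences -0.07 and -0.19). The call of Tnnt1 against resting cells ended when any 1 of the 4 arrays was left out (adjusted p 0.0599 to 0.107), and that of Hsd3b5 ended without TI array 1 (adjusted p = 0.0572). Without TI array 2 those of Rap1gap (0.0739), Igkv4-68 (0.0558) and the Adck1 probe set (0.0590) ended, all by limma. The lower ones were Igkv6-14 (-4.23), Ighg3 on a family-type probe set (-3.87), a family-type probe set annotated to Adck1 (-3.14), Igkv10-96 (-3.13), Ids (-2.74), Igkv4-68 (-2.71), Igkv14-111 (-2.62), Ly6g6c (-2.45), Dguok (-2.27) and Igkv4-70 (-2.24). The call of this Ighg3 probe set against resting cells ended without either TI array (adjusted p = 0.157). The Igkv14-111 value is from the dimmest of its 3 probe sets, and the others were not called: the brightest read 3900 and 1447 in resting and 6199 and 6383 in TI cells, with a log2 difference of 1.42 from TD day 4.

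Control probe sets of the array, which were outside the comparison, were more than 2-fold brighter in TI cells than the resting mean or the floor in 7 cases. Their TI means were 2322.5 for the 5′ part of 18S ribosomal RNA (889.0 in resting), 348.5 for BioC and 555.5 for BioDn, which are bacterial spike-ins, 720.5, 185.5 and 276.5 for the 3′, 5′ and middle antisense probe sets of Gapdh, and 232.5 for the MurFAS control.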

How the results depend on the processing

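The count of 682 probe sets that differed between TI day 4 and resting cells lay between 587 and 726 under quantile normalization, a common median, a stricter filter, other floors and a trended robust prior. It was 434 with no filter on low values, 100 in a fit of the 4 compared arrays alone, 454 with array weights, and 308 to 675 with 1 of the 4 arrays left out. No named call reversed its direction. In the fit of 4 arrays, 123 named results lost their call. The 225 named results also hold some that were not called with all arrays, so the share of calls lost is larger than 123 of 225. Of the 682 calls over all probe sets, 98 were also made in that fit.

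The 105 differences between TI and TD day 4 became 42 with no filter, 0 in a fit of its own arrays (1313 with unadjusted limma p under 0.05), 261 with array weights and 0 to 28 with 1 array left out. The 174 between TI and TD day 10 became 104, 0 (1442 unadjusted), 292 and 4 to 45. A common median moved the share of higher calls against TD day 10 from 50.0% to 60.2%. The cause was not tested, except that smaller fits hold fewer arrays and the unfiltered test more probe sets.

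Replicate numbers did not pair the arrays. With a replicate block the counts were 517 against resting, 46 against TD day 4 and 107 against TD day 10. Crossed numbers, tried after seeing the data, gave 40 against TD day 4. The fits without immunoglobulin probe sets, with equal variance and with the median set to 0 were also added after seeing the data.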

Other observations

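Counts in the metabolic lists are to be read beside 5.42% higher and 3.98% lower among all probe sets. Synthesis of nucleotides and one-carbon units rose in 5 of 24 genes with none lower, with Cmpk1, a nucleoside monophosphate kinase, going from 199 and 206 to 962 and 901 (4.60-fold) and the serine pathway enzyme Psat1 rising 3.80-fold. Without TI array 2 the list had 3 rises. Of 20 genes of cholesterol and fatty acid synthesis 4 rose and 2 fell, led by Fdps, the farnesyl diphosphate synthase (4.64-fold higher), and Abcg1, a cholesterol exporter (3.77-fold lower). Without TI array 1 there were 2 rises. Txn1, thioredoxin, rose 5.39-fold, from 685 and 891 to 4026 and 4398, among 4 rises in 23 antioxidant genes. Oxidative phosphorylation rose in 5 of 56 and glycolysis in 2 of 16, and none of these 7 calls was kept without each of the 4 arrays.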
